A study of Mus musculus with 11 samples.

Results

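The genes described here are 56 genes of mitosis and chromosome segregation, listed by name with earlier results of these data known. Their counts, set beside shares of all genes, are therefore a description. The list spans mitotic entry, the spindle checkpoint, the kinetochore, the chromosomal passenger complex, the spindle, cytokinesis and chromosome structure. All 56 were found among the 25562 genes of the deposited expression table, which covers 11 libraries of polyadenylated RNA from mouse CD8+ T cells. The cells came from spleens of C57BL/6 mice, were enriched with a CD8 isolation kit, were pretreated for 22 h and were then activated for 24 h with 1 µg/mL anti-CD3 and 0.5 µg/mL anti-CD28 antibodies, the same in every group. The AOAH group (4 libraries, batches 1 to 4) received 10 µg/mL of His-tagged recombinant human acyloxyacyl hydrolase, a lipase that removes acyl chains from lipopolysaccharide and phospholipids, together with ethanol. The PC group (3 libraries, batches 1 to 3) received 60 µM PC16:0-20:4, a phosphatidylcholine with palmitic and arachidonic acid, and then a protein buffer of PBS with 10% glycerol. The vehicle group (4 libraries, batches 1 to 4) received ethanol with that PBS and glycerol buffer. The labels differ on whether AOAH was given before or during activation, on plate-bound antibody or beads, and on whether the medium held IL-2. No glycerol share is given for AOAH, so its buffer and the enzyme cannot be told apart. Nothing in the labels says that libraries of 1 group came from separate mice or cultures, so a p-value here sets differences against a spread between libraries that could be purely technical.

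Mitosis is driven by cyclin-dependent kinase 1, which is switched on by its cyclins and by CDC25 phosphatases. Kinetochores then attach the condensed chromosomes to the spindle, and a checkpoint holds back the anaphase-promoting complex until every chromosome is attached, after which separase cuts cohesin and the cell divides. Most of these genes are transcribed late in the cell cycle, through promoters with CCAAT boxes bound by NF-Y and a cell cycle homology region bound by the MuvB complex with B-MYB or FOXM1, and their RNA is scarce in resting T cells and abundant once activated T cells divide.

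Values are TPM, each gene's share of a library's transcripts after scaling by transcript length, so levels of different genes can be set beside each other, while the depth of each library is unknown. Values in parallel libraries are always given in the order of batches 1 to 4 (vehicle, AOAH) or 1 to 3 (PC). Changes are differences of log2(TPM + 1), which understate the change of genes with low levels. A change is called where the limma adjusted p is under 0.05. PC was compared with vehicle 1 to 3, because vehicle 4 has no partner in PC, and AOAH was compared with vehicle 1 to 4, so the comparisons share 3 control libraries.

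In the vehicle libraries the 56 genes ranged widely in level. There were 5 genes at 100 TPM or more, which were Cks2, Smc4, Top2a, Cdk1 and Cks1b. A further 44 lay between 10 and 100 TPM, 7 lay under 10 TPM, and the median was 24.9 TPM. Summed over the 56 genes, the level was 2373, 2044, 2348 and 2021 TPM in vehicle, 2751, 2695, 2797 and 2687 TPM with AOAH, and 1337, 1239.6 and 1259 TPM with PC. The sums of the 3 groups did not overlap: AOAH was above every vehicle library and PC was below every one. As shares of all TPM these sums were 0.202% to 0.238% in vehicle, 0.269% to 0.280% with AOAH and 0.124% to 0.134% with PC. In bulk RNA, fewer dividing cells and less of these transcripts per dividing cell cannot be told apart.

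**Figure D1:**
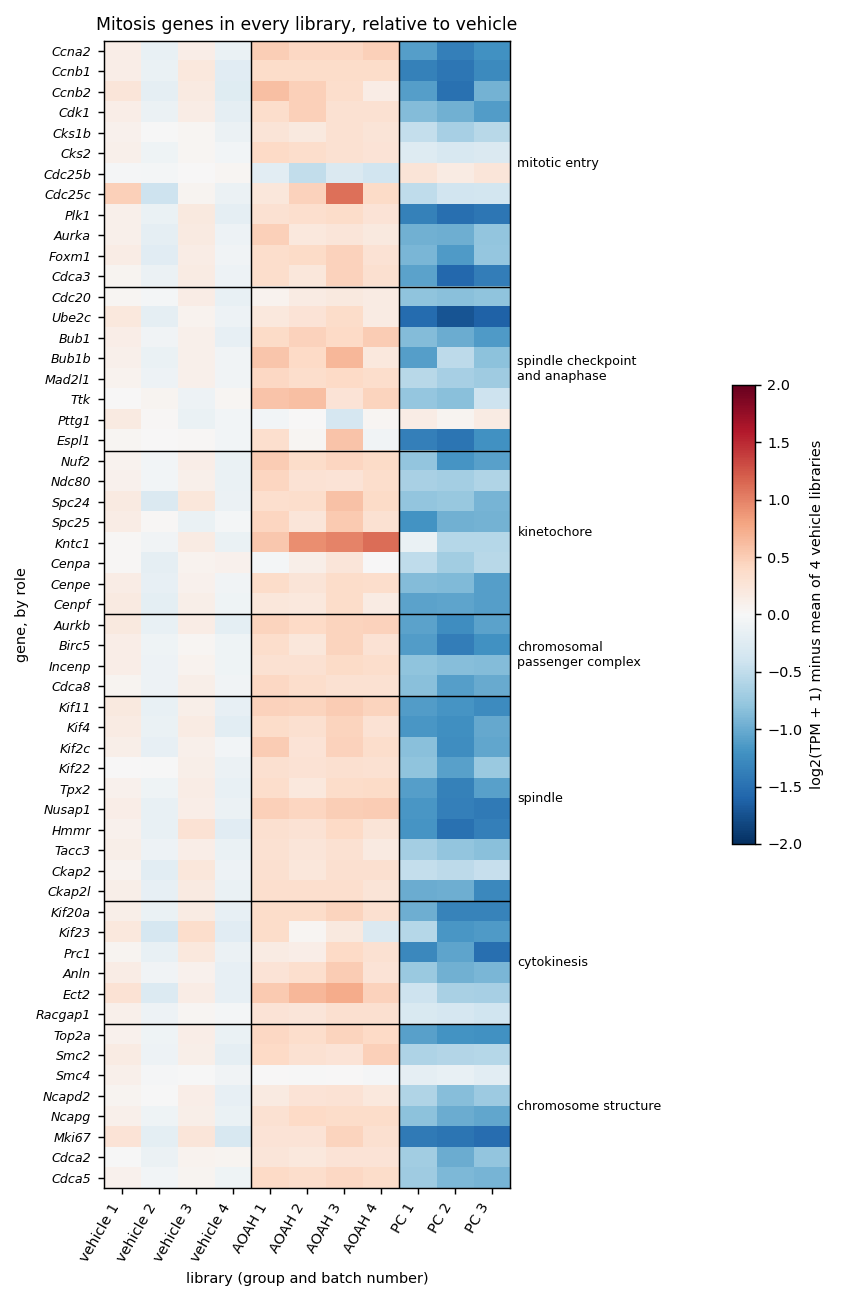
Heat map of log2(TPM + 1) minus the mean of the 4 vehicle libraries, with the 56 genes in rows, grouped by role, and the 11 libraries in columns. Most rows are above the vehicle mean in the 4 AOAH libraries and below it in the 3 PC libraries; Cdc25b runs the other way in both, and Pttg1 and Smc4 stay closest to the vehicle mean.

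Each library held 11423 to 11739 genes at 1 TPM or more. The 8 markers of CD8 T cells include Cd8a, Cd8b1 and Cd3e. They summed to 2086 to 2132 TPM in vehicle, 1866 to 1907 TPM with AOAH and 2401 to 2484 TPM with PC. Of the 8, 6 were called lower with AOAH, against 12.1% of all genes tested, and 8 were called higher with PC, against 8.26%. These markers moved opposite to the mitosis genes, and their part in the result was not tested. The 4 markers of CD4 T cells summed to 3.87 to 6.04 TPM in vehicle, 3.69 to 6.88 TPM with AOAH and 6.33 to 9.03 TPM with PC. Cd4 was under 0.5 TPM in every library. The 8 B cell markers summed to 151 to 157 TPM in vehicle, 131 to 140 TPM with AOAH and 167 to 173 TPM with PC. These sums did not overlap between groups, Ighm held most, and Ms4a1 stood at 0 to 0.11 TPM. Myeloid markers (6 of 8 in the table) summed to 4.83 to 9.12 TPM with Csf1r at 0 to 0.1 TPM. NK markers, 4 in all, summed to 99.0 to 102.9 TPM in vehicle, 81.9 to 88.5 TPM with AOAH and 79.6 to 85.3 TPM with PC. Nearly all of it was Eomes, which activated CD8 T cells also express, with Ncr1 at 0 to 0.24 TPM. With 2 genes tested in each list, 1 CD4 and 1 B cell marker were called higher with PC. In the other direction, 1 B cell marker was called lower with AOAH and 1 NK marker lower with each treatment. Over all genes tested, 12.1% were called lower with AOAH and 11.2% with PC. Erythroid markers (6 of 8 in the table) summed to 0.14 to 1.78 TPM.

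Promoter sequence was examined because so many of the genes moved together, as described further on. RefSeq windows of the GRCm38.p6 build, from 250 bases before to 50 bases after the start, were matched by symbol for 46 of the 56 genes, with 48 windows. The letters TTTGAA or TTCGAA (a cell cycle homology region, either strand) stood in 39 of the 48 windows, 81.3%, against 19.2% of all 32851 RefSeq windows of this length. CCAAT (the NF-Y box, either strand) stood in 38 windows, 79.2% against 37.4%, and was present more than once in 25 windows, 52.1% against 11.7%. Both kinds stood in 35 windows, 72.9% against 7.53%. The E2F letters TTTGGCGC or TTTCGCGC stood in 2 windows, 4.17% against 0.813%. Of 88 CCAAT matches, 84 began before the start and 56 lay within 100 bases before it, while 31 of 54 homology region matches began before the start. A match is a description of the letters, not evidence of binding.

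**Figure D2:**
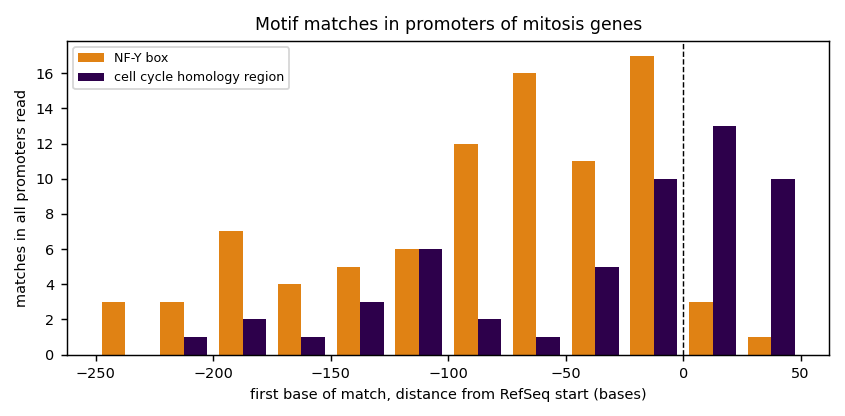
Histogram of the first base of each match relative to the RefSeq start in bases (negative is before the start), as counts of matches in 48 promoter windows per bin of 25 bases. NF-Y boxes, 88 in all, pile up in the 100 bases before the start, and cell cycle homology region letters, 54 in all, lie on both sides of the start.

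The 180 bases before the RefSeq start are shown for 7 genes, 5′ to 3′ in the direction of the gene, with matches to the NF-Y box or the homology region letters on either strand in capitals (on the opposite strand they read ATTGG for the box and TTCAAA for the region). Ube2c (chr2:164769749-164769928, plus strand) and Mki67 (chr7:135716380-135716559, minus strand) had the largest falls with PC on the log2(TPM + 1) scale. Ccnb2 (chr9:70421555-70421734, minus strand) and Top2a (chr11:99024190-99024369, minus strand) show repeated boxes. Plk1 (chr7:122159255-122159434, plus strand) also fell strongly, Kntc1 (chr5:123749546-123749725, plus strand) had the largest rise with AOAH, and Cdc25b (chr2:131186768-131186947, plus strand) moved against the others. All coordinates are GRCm38.p6.
Ube2c: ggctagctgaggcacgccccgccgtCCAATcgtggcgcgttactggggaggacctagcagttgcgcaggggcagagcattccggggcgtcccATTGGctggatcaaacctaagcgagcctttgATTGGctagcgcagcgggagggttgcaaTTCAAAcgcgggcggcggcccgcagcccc
Mki67: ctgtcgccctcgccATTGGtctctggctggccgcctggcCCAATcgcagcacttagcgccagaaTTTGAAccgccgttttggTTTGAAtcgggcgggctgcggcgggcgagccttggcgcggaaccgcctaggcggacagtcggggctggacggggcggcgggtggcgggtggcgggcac
Ccnb2: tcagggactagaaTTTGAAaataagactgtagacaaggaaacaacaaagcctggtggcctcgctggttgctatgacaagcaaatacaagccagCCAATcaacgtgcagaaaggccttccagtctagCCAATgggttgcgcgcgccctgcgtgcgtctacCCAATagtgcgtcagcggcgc
Top2a: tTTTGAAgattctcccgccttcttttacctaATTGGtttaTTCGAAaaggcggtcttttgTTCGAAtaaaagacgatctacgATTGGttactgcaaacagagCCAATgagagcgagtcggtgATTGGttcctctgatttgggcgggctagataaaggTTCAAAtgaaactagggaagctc
Plk1: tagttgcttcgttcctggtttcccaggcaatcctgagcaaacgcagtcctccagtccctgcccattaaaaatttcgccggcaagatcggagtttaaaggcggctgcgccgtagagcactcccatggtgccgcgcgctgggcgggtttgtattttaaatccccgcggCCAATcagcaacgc
Kntc1: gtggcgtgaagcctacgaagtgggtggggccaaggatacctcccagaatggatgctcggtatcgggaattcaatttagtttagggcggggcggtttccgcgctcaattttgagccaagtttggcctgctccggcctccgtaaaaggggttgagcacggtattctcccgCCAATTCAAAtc
Cdc25b: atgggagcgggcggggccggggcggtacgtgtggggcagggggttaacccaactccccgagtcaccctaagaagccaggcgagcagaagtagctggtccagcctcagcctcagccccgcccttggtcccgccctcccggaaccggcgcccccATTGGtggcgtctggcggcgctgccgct
These stretches hold 4 matches in Ube2c, 4 in Mki67, 4 in Ccnb2, 8 in Top2a, 1 in Plk1, 2 in Kntc1, which overlap, and 1 in Cdc25b. The full windows of Plk1 and Cdc25b also hold homology region letters just after the start, so Cdc25b, which moved the other way, has both kinds, as Plk1 has. The 33 genes with both kinds had a median log2 change of 0.32 with AOAH and -1.04 with PC, and the 13 matched genes without both had 0.35 and -0.92, values set side by side without a test. Pttg1 had neither kind in its window, and neither did Mad2l1, Nuf2, Birc5, Nusap1 and Tacc3, which all fell with PC.

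With AOAH, 41 of the 56 genes were higher than in vehicle, 1 was lower (Cdc25b) and 14 were not called. Over all 11561 genes tested, 13.1% were called higher and 12.1% lower (25.2% in either direction). The median log2 change of the 56 genes was 0.34, against 0.01 over all genes tested, and the ratio of mean TPM had a median of 1.28 and ran from 0.776 (Cdc25b) to 1.91 (Kntc1). All 4 AOAH libraries were above all 4 vehicle libraries in 43 genes, against 15.1% of all genes tested, and below in 1, against 13.7%; in 12 genes the groups overlapped. The 14 not called were Ccnb2, Cdc25c, Aurka, Cdc20, Ube2c, Pttg1, Espl1, Cenpa, Cenpf, Hmmr, Kif23, Prc1, Smc4 and Mki67. The number of genes called higher ranged from 33, without vehicle 2, to 45, without vehicle 1 or vehicle 3, when 1 library was left out, and was 35 without the filter on low genes, where the calls of Ckap2, Ckap2l, Kif4, Plk1, Spc24 and Tacc3 were lost. Over all genes, 1514 of 11561 were called higher in the main fit. That number was 1068 without vehicle 2, 1416 without vehicle 1, 1426 without vehicle 3 and 1075 of 23325 without the filter.

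With PC the direction was the opposite: 53 of the 56 genes were lower than in vehicle, 1 was higher (Cdc25b) and 2 were not called (Cdc25c and Pttg1). Over all 11630 genes tested, 11.2% were called lower and 8.26% higher (19.5% in either direction). The median log2 change of the 56 genes was -0.99, against -0.01 over all genes tested. The ratio of mean TPM had a median of 0.478, was under 0.5 in 32 genes and ran from 0.288 (Cenpf) to 1.19 (Cdc25b). A fall of at least 1 on the log2 scale was called in 27 of the 56 genes, against 0.559% of all genes tested. In 53 genes all 3 PC libraries were below vehicle 1 to 3, against 21.4% of all genes tested, in 1 all were above (17.9%), and 2 overlapped. In 12 genes the whole 95% interval of the change lay below -1. This count and that of ratios under 0.5 were taken for the 56 genes only, so no share of all genes stands beside them. Without the filter on low genes 48 were called lower, and the calls of Ckap2, Ect2, Kif23, Kntc1 and Smc4 were lost. Over all genes, 1308 of 11630 were called lower in the main fit and 794 of 24258 without the filter.

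**Figure D3:**
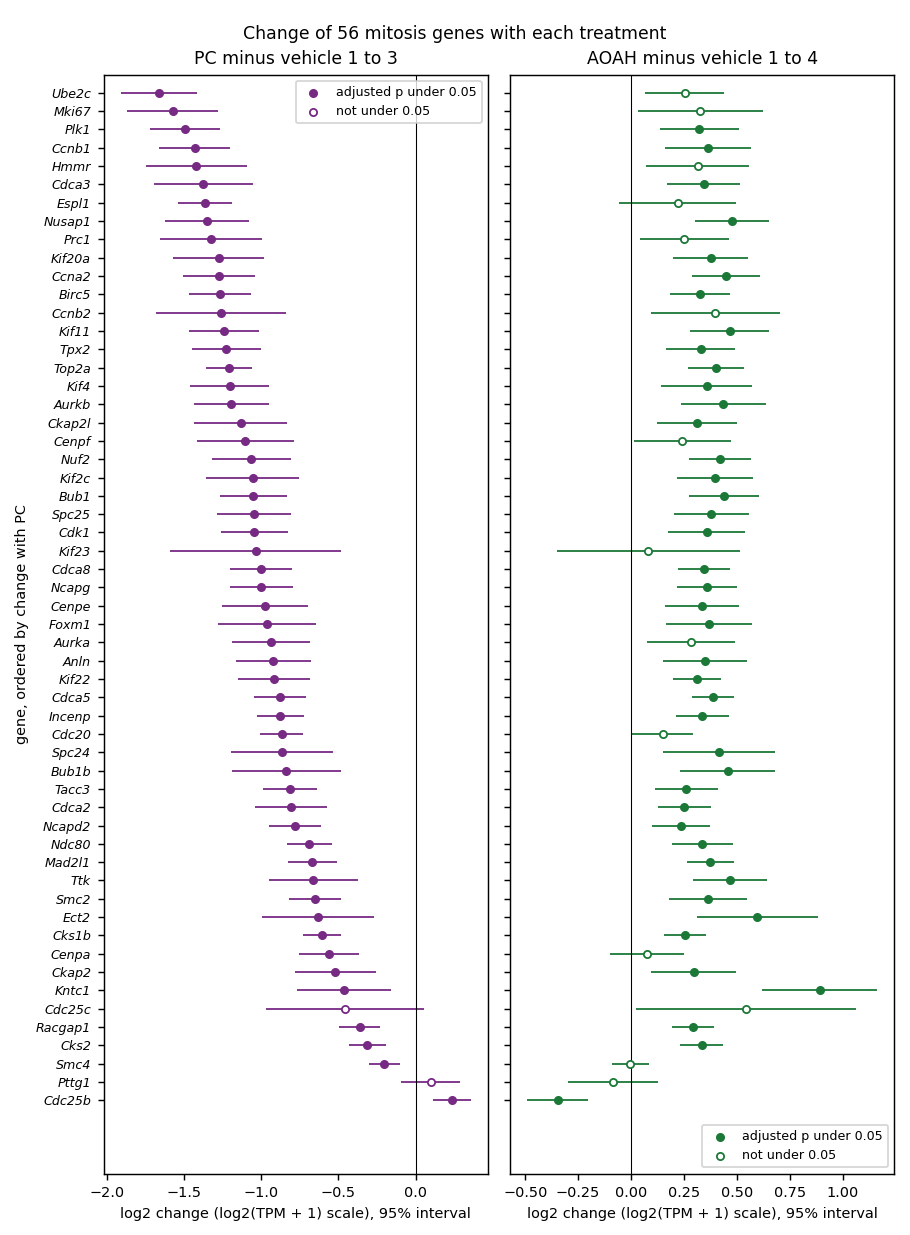
Log2 change of each of the 56 genes on the log2(TPM + 1) scale with its 95% interval, for PC against vehicle 1 to 3 and AOAH against vehicle 1 to 4, genes ordered by the change with PC; filled points passed an adjusted p of 0.05 and open points did not. The PC changes run from -1.66 (Ube2c) to 0.23 (Cdc25b), the AOAH changes from -0.35 (Cdc25b) to 0.89 (Kntc1).

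Of the 12 genes of mitotic entry, 8 were higher with AOAH, 1 was lower and 3 were not called, while 10 were lower with PC, 1 was higher and 1 was not called. Cdk1, the kinase that drives entry into mitosis, stood at 149, 125, 150.4 and 119.7 TPM in the vehicle libraries, at 173, 189, 167 and 166 TPM with AOAH and at 73.4, 69.0 and 61.5 TPM with PC. Every AOAH library was above and every PC library below every vehicle library, and the log2 change was 0.36 ± 0.08 (SE, limma adjusted p = 0.0116) with AOAH and -1.04 ± 0.09 (SE, limma adjusted p = 0.00111) with PC. Cks2, a small protein that binds the kinase, was the most abundant of the list and stood at 168, 148, 162 and 151 TPM in the vehicle libraries, at 207, 201, 194 and 191 TPM with AOAH and at 131, 125 and 128 TPM with PC. Its groups did not overlap either, with a change of 0.33 ± 0.05 (SE, limma adjusted p = 0.000981) with AOAH, but its fall with PC, -0.31 ± 0.05 (SE, limma adjusted p = 0.00683), was among the smallest. Its relative Cks1b rose by 0.25 with AOAH and fell by 0.61 with PC.

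Plk1, the polo-like kinase needed for spindle assembly, stood at 23.6, 19.8, 25.1 and 19.2 TPM in the vehicle libraries, at 27.2, 27.8, 28.3 and 26.5 TPM with AOAH and at 7.95, 7.04 and 7.33 TPM with PC. The AOAH libraries lay within 2 TPM of each other and above vehicle, and the change was 0.32 ± 0.08 (SE, limma adjusted p = 0.0202), a call that was lost without vehicle 2 (0.0557) and without AOAH 3 (0.0511). With PC, Plk1 fell by more than in any other entry gene, with a change of -1.49 ± 0.10 (SE, limma adjusted p = 0.000684) and a ratio of mean TPM of 0.326. The cyclins Ccna2, Ccnb1 and Ccnb2, which activate the kinase, changed by 0.45, 0.36 and 0.40 with AOAH and by -1.27, -1.43 and -1.26 with PC on the log2 scale. Of these, Ccnb2 was not called with AOAH (limma adjusted p = 0.0603), where AOAH 4 (7.06 TPM) overlapped vehicle 1 and 3, and was called with batch as a block (0.0315). Foxm1, a transcription factor of late cell cycle genes, rose by 0.37 and fell by 0.96, and Cdca3, which promotes the destruction of the inhibitor Wee1, rose by 0.34 and fell by 1.37. Aurka, the centrosomal aurora kinase, had a change of 0.28 ± 0.09 (SE, limma adjusted p = 0.0531) with AOAH, and was called with batch as a block (0.0371), while it fell by 0.94 with PC.

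The CDC25 phosphatases remove inhibitory phosphates from the kinase, and of the pair listed Cdc25b ran against the rest. Cdc25b stood at 16.6, 16.4, 17.0 and 17.3 TPM in the vehicle libraries, at 14.4, 11.7, 13.5 and 12.7 TPM with AOAH and at 20.2, 18.9 and 20.2 TPM with PC. It was lower in all 4 AOAH libraries and higher in all 3 PC libraries than in any vehicle library, with changes of -0.35 ± 0.06 (SE, limma adjusted p = 0.00443) and 0.23 ± 0.05 (SE, limma adjusted p = 0.0223). The call of a rise with PC failed when batch was a block (limma adjusted p = 0.0587), without a filter on low genes (0.0525) and without vehicle 1 (0.0708), vehicle 3 (0.0531), PC 1 (0.0688) and PC 3 (0.0785). Cdc25c stood at 5.53, 2.50, 3.85 and 3.34 TPM in the vehicle libraries, at 4.46, 5.43, 9.07 and 5.11 TPM with AOAH and at 2.31, 2.59 and 2.62 TPM with PC, low and scattered levels with AOAH 3 highest. Its AOAH and its PC libraries each overlapped vehicle, and its changes, with the signs of most of the list, of 0.54 ± 0.23 (SE, limma adjusted p = 0.118) and -0.46 ± 0.22 (SE, limma adjusted p = 0.192) were not called. The first passed without vehicle 1 (0.0489) and the second without vehicle 2 (0.0337). In AOAH against PC it was called higher, by 0.96 ± 0.20 (SE, limma adjusted p = 0.00478).

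Among the 8 genes of the spindle checkpoint and anaphase, 4 were higher with AOAH and 4 were not called, while 7 were lower with PC and 1 was not called. Those higher with AOAH were the checkpoint genes Bub1 (0.44), Bub1b (0.46), Mad2l1 and Ttk. Those not called were Cdc20, Ube2c, Pttg1 and Espl1, of which Ube2c and Cdc20 passed when 1 vehicle library was left out. Mad2l1, which holds back the anaphase-promoting complex, stood at 74.8, 66.4, 76.1 and 67.3 TPM in the vehicle libraries, at 94.8, 90.6, 93.7 and 90.5 TPM with AOAH and at 48.0, 44.7 and 42.9 TPM with PC. No groups overlapped, and it rose by 0.37 ± 0.05 (SE, limma adjusted p = 0.000817) with AOAH and changed by -0.67 ± 0.07 (SE, limma adjusted p = 0.00149) with PC. Ttk, the kinase that starts checkpoint signalling, stood at 10.4, 10.8, 9.65 and 10.7 TPM in the vehicle libraries, at 15.9, 16.2, 12.8 and 14.4 TPM with AOAH and at 5.64, 5.37 and 7.57 TPM with PC. The vehicle libraries were close together, below every AOAH library and above every PC library, with changes of 0.47 ± 0.08 (SE, limma adjusted p = 0.00267) and -0.66 ± 0.12 (SE, limma adjusted p = 0.0117).

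Ube2c, the ubiquitin-conjugating enzyme of the anaphase-promoting complex, stood at 62.7, 47.7, 57.3 and 50.7 TPM in the vehicle libraries, at 62.9, 65.8, 70.0 and 61.2 TPM with AOAH and at 18.0, 15.7 and 17.0 TPM with PC. The vehicle and AOAH libraries overlapped through vehicle 1 and AOAH 4, whereas the PC libraries were far below both. The change of 0.25 ± 0.08 (SE, limma adjusted p = 0.0522) with AOAH missed the threshold and passed without vehicle 1 (0.0138). The fall with PC, -1.66 ± 0.10 (SE, limma adjusted p = 0.000684), was the largest of the 56 on the log2(TPM + 1) scale. Cdc20, which activates the same complex, had a change of 0.15 with AOAH (limma adjusted p = 0.118, 0.0348 without vehicle 3) and fell by 0.87 with PC. Espl1, or separase, had a change of 0.22 with AOAH (0.224), where AOAH 2 and 4 lay at vehicle levels, and fell by 1.37 with PC.

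Securin, the inhibitor that binds separase until anaphase, is encoded by Pttg1 and stood at 52.3, 47.0, 42.0 and 44.3 TPM in the vehicle libraries, at 44.4, 46.7, 36.2 and 47.6 TPM with AOAH and at 51.2, 47.9 and 51.7 TPM with PC. The AOAH and the PC libraries each overlapped vehicle, and the changes of -0.09 ± 0.09 (SE, limma adjusted p = 0.551) and 0.10 ± 0.08 (SE, limma adjusted p = 0.451) were not called. Its 95% intervals ran from -0.30 to 0.13 with AOAH and from -0.09 to 0.29 with PC, so a fall like that of separase lay outside the second. The ratio of Pttg1 to Espl1 TPM was 1.59 to 1.95 in vehicle, 0.931 to 1.92 with AOAH and 4.84 to 5.45 with PC. The PC libraries thus stood apart from both other groups in this ratio, which was chosen after the values were seen and was not tested.

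All 8 kinetochore genes were lower with PC, and 6 were higher with AOAH with 2 not called. Kntc1, a subunit of the Rod-Zw10-Zwilch complex that brings checkpoint proteins to kinetochores, stood at 21.8, 20.3, 24.1 and 19.4 TPM in the vehicle libraries, at 31.3, 41.5, 43.2 and 47.3 TPM with AOAH and at 19.3, 14.1 and 14.1 TPM with PC. AOAH 1 was the lowest of its group but still above every vehicle library, and the rise of 0.89 ± 0.12 (SE, limma adjusted p = 0.000997) was the largest of the 56, with a ratio of mean TPM of 1.91. Kntc1 also had one of the smaller changes with PC, -0.47 ± 0.13 (SE, limma adjusted p = 0.0456), and PC 1 lay just below vehicle 4. That call failed when batch was a block (limma adjusted p = 0.0649), without a filter on low genes (0.124), with other scalings (0.0567 and 0.0568), with 1 fit over all libraries (0.0519) and without vehicle 1 (0.11), vehicle 2 (0.0659), vehicle 3 (0.129), PC 2 (0.13) and PC 3 (0.131). Its partners in the complex, named after their values were seen, had smaller changes with AOAH: Zwilch rose by 0.51 and Zw10 by 0.15.

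The 4 subunits of the Ndc80 complex, which grips spindle microtubules, all rose with AOAH and fell with PC. Spc24 stood at 55.4, 39.8, 57.7 and 45.0 TPM in the vehicle libraries, at 62.3, 62.6, 74.0 and 64.2 TPM with AOAH and at 27.9, 28.5 and 25.2 TPM with PC. AOAH 3 stood above the rest of its group, and the change was 0.42 ± 0.12 (SE, limma adjusted p = 0.0301), a call lost without vehicle 2 (0.0525), vehicle 4 (0.0781), AOAH 2 (0.0534), AOAH 3 (0.0748) and AOAH 4 (0.0625). With PC it changed by -0.87 ± 0.14 (SE, limma adjusted p = 0.0075). Spc25, Nuf2 and Ndc80 rose by 0.38, 0.42 and 0.34 with AOAH and fell by 1.05, 1.06 and 0.69 with PC.

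Cenpa, the histone H3 variant that marks centromeres, stood at 33.5, 28.9, 34.6 and 35.1 TPM in the vehicle libraries, at 31.9, 35.7, 38.9 and 33.0 TPM with AOAH and at 22.8, 19.8 and 22.0 TPM with PC. Vehicle and AOAH overlapped, with a change of 0.08 ± 0.08 (SE, limma adjusted p = 0.511), and only PC stood apart, with a change of -0.56 ± 0.08 (SE, limma adjusted p = 0.00504). Cenpf, a large kinetochore and nuclear envelope protein, had the lowest levels of the list and stood at 3.47, 2.45, 3.28 and 2.74 TPM in the vehicle libraries, at 3.66, 3.58, 4.12 and 3.42 TPM with AOAH and at 0.890, 0.910 and 0.850 TPM with PC. Vehicle 1 (3.47 TPM) overlapped AOAH 4, the change with AOAH was 0.24 ± 0.10 (SE, limma adjusted p = 0.114), and it was called under quantile normalization (0.0374). With PC its ratio of mean TPM, 0.288, was the lowest of the 56, although its change on the log2(TPM + 1) scale was -1.10 ± 0.13 (SE, limma adjusted p = 0.00258). Cenpe, a kinetochore motor, rose by 0.33 and fell by 0.98.

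The chromosomal passenger complex, which corrects faulty attachments and moves to the midzone in anaphase, moved as a whole: all 4 of its genes were higher with AOAH and all 4 were lower with PC. Birc5, or survivin, stood at 84.0, 72.1, 78.0 and 71.4 TPM in the vehicle libraries, at 97.5, 88.9, 104 and 93.6 TPM with AOAH and at 34.7, 28.5 and 32.4 TPM with PC. Every AOAH library was above and every PC library below vehicle, with changes of 0.33 ± 0.06 (SE, limma adjusted p = 0.00556) and -1.27 ± 0.08 (SE, limma adjusted p = 0.000684). Aurkb, its kinase, stood at 66.3, 51.7, 64.1 and 50.0 TPM in the vehicle libraries, at 78.4, 76.1, 78.5 and 79.9 TPM with AOAH and at 27.0, 23.6 and 26.9 TPM with PC, again without overlap. The changes were 0.44 ± 0.09 (SE, limma adjusted p = 0.00738) with AOAH and -1.19 ± 0.10 (SE, limma adjusted p = 0.00102) with PC. The scaffold Incenp and the subunit Cdca8, or borealin, rose by 0.34 and 0.34 and fell by 0.88 and 1.00, so the AOAH changes of the 4 genes ran from 0.33 to 0.44 and the PC changes from -1.27 to -0.88.

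Of 10 spindle genes, 9 were higher with AOAH, 1 was not called and all 10 were lower with PC. The count of 9 dropped to 5 without vehicle 2, without AOAH 1, without AOAH 3 and without the filter on low genes. Over all genes, the 1514 called higher with AOAH became 1068, 1339, 1152 and 1075 of 23325 in the same order. Their median change with PC, -1.17, was the lowest of the 7 role groups, and with AOAH it was 0.32. Kif11, the motor that pushes spindle poles apart, stood at 29.2, 22.8, 27.4 and 22.5 TPM in the vehicle libraries, at 35.2, 34.7, 36.5 and 35.0 TPM with AOAH and at 11.1, 10.6 and 9.97 TPM with PC. The AOAH libraries were within 2 TPM of each other, no groups overlapped, and the changes were 0.46 ± 0.08 (SE, limma adjusted p = 0.00365) and -1.24 ± 0.10 (SE, limma adjusted p = 0.000816). Nusap1, a microtubule-bundling protein, stood at 11.3, 9.03, 11.3 and 9.31 TPM in the vehicle libraries, at 14.6, 14.0, 14.7 and 14.8 TPM with AOAH and at 4.01, 3.33 and 3.19 TPM with PC. Its rise was the largest of the spindle genes, 0.48 ± 0.08 (SE, limma adjusted p = 0.00247), and its change with PC was -1.35 ± 0.11 (SE, limma adjusted p = 0.00101).

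Hmmr, a spindle protein that is also a hyaluronan receptor, stood at 9.05, 7.57, 10.7 and 7.15 TPM in the vehicle libraries, at 10.8, 10.6, 11.5 and 10.3 TPM with AOAH and at 3.22, 2.38 and 2.68 TPM with PC. Vehicle 3 lay above AOAH 2 and AOAH 4, so these groups overlapped, while PC was far below. The change of 0.31 ± 0.11 (SE, limma adjusted p = 0.0626) was not called with AOAH, passed with batch as a block (0.0449) and without vehicle 3 (0.0103), and with PC the change was -1.42 ± 0.14 (SE, limma adjusted p = 0.00149), the largest fall of the spindle genes. Tacc3, which stabilizes spindle fibres and was the most abundant of them, stood at 65.6, 56.5, 66.4 and 55.1 TPM in the vehicle libraries, at 75.6, 71.7, 75.4 and 69.2 TPM with AOAH and at 37.4, 34.7 and 33.7 TPM with PC. It changed by 0.26 ± 0.07 (SE, limma adjusted p = 0.0197) with AOAH, which was lost without vehicle 2 (0.0547), AOAH 1 (0.0504) and AOAH 3 (0.0513), and by -0.81 ± 0.07 (SE, limma adjusted p = 0.00114) with PC.

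The other spindle genes moved likewise. Tpx2, which activates aurora A, changed by 0.33 and -1.23 with AOAH and PC, and the motors Kif4, Kif2c and Kif22 by 0.36, 0.40 and 0.31 with AOAH and by -1.20, -1.06 and -0.92 with PC. The AOAH call of Kif4 was lost without vehicle 2 (0.0645), vehicle 4 (0.0517), AOAH 1 (0.0522) and AOAH 3 (0.0608). Ckap2 and Ckap2l, a pair of related spindle proteins, rose by 0.30 and 0.31 with AOAH and fell by 0.52 and 1.13 with PC. Their AOAH calls were lost when any 1 of several libraries was left out. That of Ckap2 failed without vehicle 2 (0.0819), vehicle 4 (0.0945), AOAH 1 (0.0775), AOAH 2 (0.056), AOAH 3 (0.0822) or AOAH 4 (0.0839). That of Ckap2l failed without vehicle 2 (0.0599), vehicle 4 (0.0643), AOAH 1 (0.0542), AOAH 2 (0.056) or AOAH 3 (0.0578). The PC call of Ckap2 failed without vehicle 1 (0.0664), PC 1 (0.0553), PC 2 (0.062) and PC 3 (0.0559).

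All 6 cytokinesis genes were lower with PC, and 4 were higher with AOAH with 2 not called. Ect2, which switches on RhoA at the division site, stood at 17.8, 11.7, 16.0 and 12.7 TPM in the vehicle libraries, at 21.1, 23.2, 24.7 and 20.1 TPM with AOAH and at 10.5, 8.81 and 8.68 TPM with PC. It had the largest rise of the group, 0.60 ± 0.13 (SE, limma adjusted p = 0.00896), with every AOAH library above vehicle. With PC the change was -0.63 ± 0.15 (SE, limma adjusted p = 0.0296), and that call was lost without vehicle 1 (0.0818), vehicle 3 (0.0913), PC 2 (0.0925) and PC 3 (0.0928). Racgap1, a subunit of centralspindlin that works with Ect2, was the most abundant and stood at 92.5, 80.6, 88.5 and 83.7 TPM in the vehicle libraries, at 105, 103, 107 and 108 TPM with AOAH and at 69.3, 68.0 and 65.2 TPM with PC. It rose by 0.29 ± 0.04 (SE, limma adjusted p = 0.00171) with AOAH and had one of the smallest falls with PC, -0.36 ± 0.06 (SE, limma adjusted p = 0.00607).

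Kif23, the motor subunit of centralspindlin, stood at 29.9, 20.0, 33.0 and 21.6 TPM in the vehicle libraries, at 33.4, 26.5, 29.4 and 20.8 TPM with AOAH and at 16.9, 10.8 and 11.1 TPM with PC. Its vehicle libraries and its AOAH libraries were both spread widely and overlapped, so the change of 0.08 ± 0.19 (SE, limma adjusted p = 0.791) was not called, and it turned to -0.03 without vehicle 2 and -0.01 without AOAH 1. The change with PC was -1.04 ± 0.23 (SE, limma adjusted p = 0.0251), lost without vehicle 1 (0.084), vehicle 3 (0.0759), PC 2 (0.082) and PC 3 (0.0821). Prc1, which bundles midzone microtubules, stood at 18.4, 15.8, 20.6 and 16.1 TPM in the vehicle libraries, at 19.9, 19.4, 23.5 and 22.0 TPM with AOAH and at 6.65, 7.95 and 5.52 TPM with PC. Vehicle 3 overlapped AOAH 1 and 2, the change of 0.25 ± 0.09 (SE, limma adjusted p = 0.0804) passed only with batch as a block (0.0445), under TMM (0.0485) or quantile scaling (0.0356) and without vehicle 3 (0.0257), and the change with PC was -1.32 ± 0.14 (SE, limma adjusted p = 0.0018). Kif20a, a midzone motor, and Anln, the actin-binding anillin, rose by 0.38 and 0.35 and fell by 1.28 and 0.92, with the AOAH call of Anln lost without vehicle 2 (0.0541).

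Of the 8 genes of chromosome structure, 6 were higher with AOAH, 2 were not called and all 8 were lower with PC. Top2a, the topoisomerase that untangles sister chromatids, stood at 154, 137, 158 and 132 TPM in the vehicle libraries, at 192, 184, 198 and 191 TPM with AOAH and at 67.7, 62.9 and 61.9 TPM with PC. The groups were well apart, and the changes were 0.40 ± 0.06 (SE, limma adjusted p = 0.00142) and -1.21 ± 0.06 (SE, limma adjusted p = 0.000451). Mki67, which coats mitotic chromosomes and encodes the Ki-67 antigen, stood at 31.8, 22.9, 31.2 and 20.9 TPM in the vehicle libraries, at 32.1, 31.8, 36.2 and 32.9 TPM with AOAH and at 9.19, 8.87 and 8.50 TPM with PC. Vehicle 1 and 3 were near the AOAH levels and vehicle 2 and 4 were lower, so although every AOAH library was above every vehicle library the change of 0.33 ± 0.13 (SE, limma adjusted p = 0.101) was not called, and it passed without vehicle 1 (0.0454). With PC the change of -1.57 ± 0.12 (SE, limma adjusted p = 0.000816) was the second largest fall of the 56 on the log2(TPM + 1) scale. By ratio of mean TPM, Cenpf (0.288), Ube2c (0.302) and Hmmr (0.303) fell further than Mki67 (0.309).

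The condensin subunits, which compact chromosomes, did not all move alike. Smc4 stood at 157, 143, 145 and 139 TPM in the vehicle libraries, at 147, 146, 146 and 143 TPM with AOAH and at 129, 131 and 126 TPM with PC, nearly the same in vehicle and AOAH. Its change with AOAH was -0.00 ± 0.04 (SE, limma adjusted p = 0.963), with a 95% interval from -0.09 to 0.08 and a sign that flipped under TMM scaling (0.00182), and with PC it was -0.20 ± 0.04 (SE, limma adjusted p = 0.0184), the smallest fall of the 53, lost without PC 1 (0.0523) and PC 3 (0.0639). Smc2, its partner in the same complexes, rose by 0.36 with AOAH and fell by 0.65 with PC, and Ncapg and Ncapd2 rose by 0.36 and 0.24 and fell by 1.00 and 0.78. The AOAH call of Ncapd2 was lost without vehicle 2 (0.0505), AOAH 2 (0.0513) and AOAH 3 (0.0518). Cdca5, or sororin, which protects cohesin, and Cdca2, which recruits a phosphatase to chromosomes, rose by 0.39 and 0.25 and fell by 0.88 and 0.81.

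**Figure D4:**
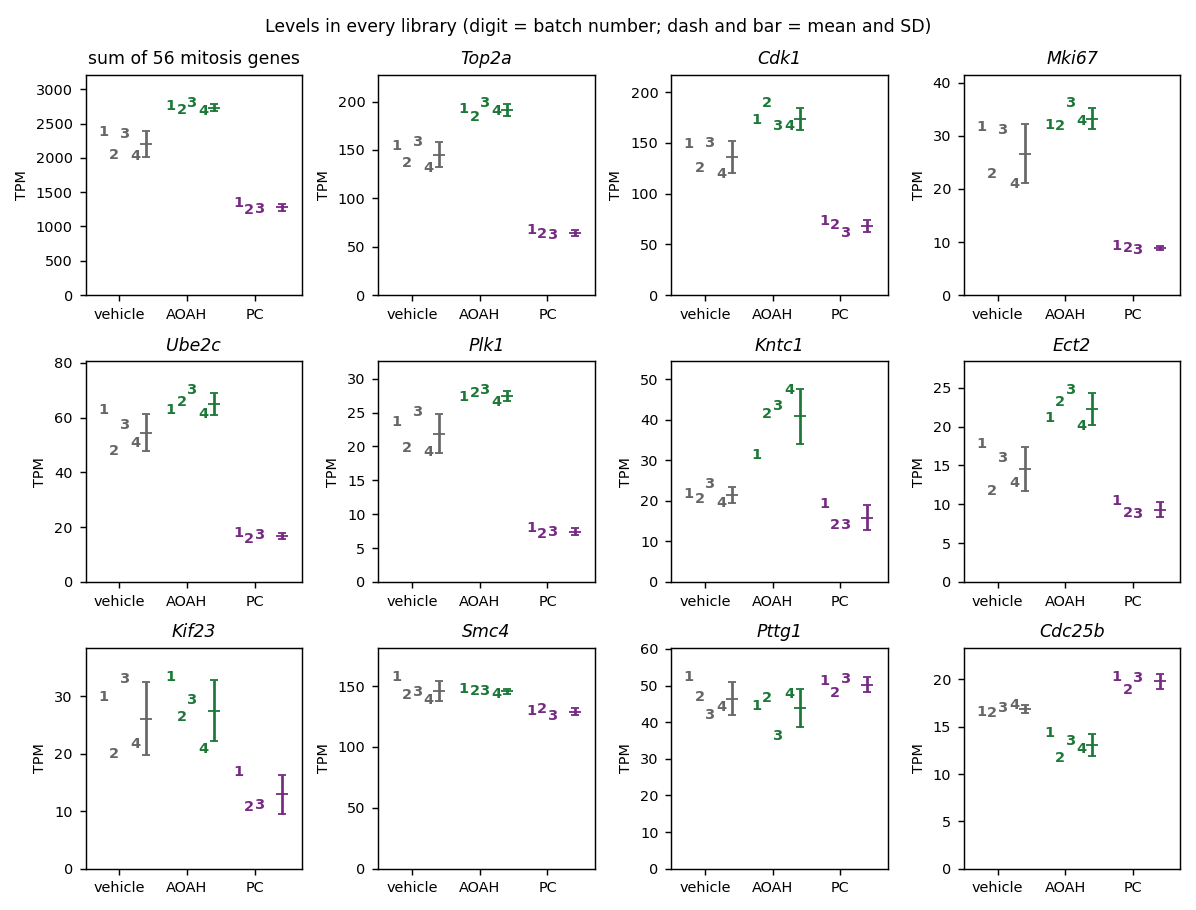
TPM in every library for the sum of the 56 genes and for 11 of them, with each digit a library marked by its batch number and the dash and bar the group's mean and SD (n = 4 vehicle, 4 AOAH, 3 PC); each axis starts at 0. Top2a, Cdk1, Plk1 and the sum separate the 3 groups, Kif23 and Pttg1 overlap between vehicle and AOAH, Smc4 is nearly level, and Cdc25b is highest with PC.

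The direct comparison of AOAH with PC does not use the vehicle libraries. In it 54 of the 56 genes were higher with AOAH, 1 was lower (Cdc25b) and 1 was not called (Pttg1). Over all 11596 genes tested, 24.3% were called higher and 21.5% lower (45.8% in either direction). The median log2 difference of the 56 genes was 1.31. Ube2c (1.88), Mki67 (1.80), Nusap1 (1.79), Plk1 (1.76) and Ccnb1 (1.72) had the largest differences, and Smc4 (0.18), Cks2 (0.63) and Racgap1 (0.64) the smallest of those higher. Cdc25b differed by -0.57 ± 0.07 (SE, limma adjusted p = 0.000446) and Pttg1 by -0.20 ± 0.09 (SE, limma adjusted p = 0.104). No call of the 56 genes changed under the alternatives in which the gene was tested. The AOAH and PC libraries did not overlap in any of the 56, with every AOAH library above in 54 and below in 2. Over all genes tested, every AOAH library was above every PC library in 26.8% and below in 23.9%.

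Other genes of mitosis were read from lists wider than the 56, to be set against the same shares of all genes tested (13.1% higher and 12.1% lower with AOAH, 8.26% higher and 11.2% lower with PC). These lists too were chosen with earlier results of these data known. Of 34 other spindle and centrosome genes, 20 were higher with AOAH and none lower, and 28 were lower with PC and none higher, with medians of 0.26 and -0.66. Troap, a spindle protein, rose by 0.49 and fell by 0.62 (limma adjusted p = 0.0514 for the fall with batch as a block), and Kif15, a spindle motor, rose by 0.36 and fell by 0.94. Shcbp1, a midbody protein, and Kpna2, an importin, fell by 1.28 and 0.53 with PC and rose by 0.34 and 0.20 with AOAH. Of 31 other kinetochore and centromere genes, 11 were higher and none lower with AOAH, and 22 were lower and none higher with PC, with medians of 0.22 and -0.52. The 11 became 7 without vehicle 2 or vehicle 4 and 6 without the filter on low genes. Over all genes, the 1514 higher with AOAH became 1068, 1073 and 1075 of 23325 in these fits. Oip5, which helps to load Cenpa, rose by 0.37 and fell by 0.73. Spdl1, a dynein adaptor, fell by 0.52 with PC and had a change of 0.17 with AOAH (limma adjusted p = 0.0848, 0.0355 without AOAH 2 and 0.0377 under quantile normalization). Zwint rose by 0.19 with AOAH while its change with PC was 0.10 (0.114, 0.0258 with 1 fit over all 11 libraries).

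The anaphase-promoting complex marks securin and cyclin B for destruction. Of 17 genes of the anaphase-promoting complex and its regulators, 4 were higher and 1 lower with AOAH, and 3 were lower and 1 higher with PC. Those lower with PC became 5 with 1 fit over all 11 libraries and 6 with array weights. The 5 genes called in either direction with AOAH and the 4 with PC are near the shares of all genes tested (25.2% and 19.5%). Nothing particular to this list is read from its counts. Of its genes the change with the lowest p was that of Fbxo5, or Emi1, an inhibitor of the complex, which stood at 35.9, 32.6, 36.0 and 33.0 TPM in the vehicle libraries, at 48.2, 47.5, 46.5 and 47.1 TPM with AOAH and at 19.0, 16.9 and 17.2 TPM with PC. The groups did not overlap, and the changes were 0.45 ± 0.04 (SE, limma adjusted p = 0.000147) and -0.94 ± 0.06 (SE, limma adjusted p = 0.000684). Ube2s, which extends ubiquitin chains for the complex, rose by 0.21 and fell by 0.25. Anapc16, a small subunit, ran against the rest, falling by 0.22 with AOAH and rising by 0.22 with PC. The PC call of Anapc16 was lost without vehicle 2, vehicle 3 or any 1 PC library and without the filter. Of 14 genes of cohesin and its regulators, 4 were higher and 1 lower with AOAH, and 8 were lower and none higher with PC. The 4 became 1 or 2 without vehicle 2, vehicle 4 or any 1 AOAH library, without the filter or with batch as a block. The 8 became 2 without vehicle 1 or vehicle 3, 4 or 5 without any 1 PC library, 3 without the filter and 4 with the block. Over all genes tested in the main fit 13.1% were higher and 12.1% lower with AOAH, and 11.2% were lower with PC. Fewer of all genes were also called higher with AOAH in those alternatives. The number was 1514 of 11561 in the main fit, 1075 of 23325 without the filter and 1121 of 11561 with batch as a block. The reduced counts are therefore not set against the main share, and nothing particular to this list is read from its AOAH count. Esco2, the acetyltransferase that establishes cohesion, rose by 0.42 and fell by 1.03. Sgo2a, a shugoshin that protects centromeric cohesin, rose by 0.25 and fell by 0.68. Its AOAH call was lost with the block (limma adjusted p = 0.0623) and without vehicle 2, vehicle 4, AOAH 2, AOAH 3 or AOAH 4 (0.0504 to 0.0698). The cohesin loader Mau2 fell by 0.27 with AOAH. Of 4 other condensin subunits, Ncaph rose by 0.36 and fell by 0.69, Ncapg2 and Ncapd3 fell by 0.80 and 0.36 with PC without a call for AOAH (Ncapg2 passed without vehicle 1, 0.0175, under TMM scaling, 0.0424, and with 1 fit over all 11 libraries, 0.0466). Ncaph2 was not called in either comparison.

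Regulators of late cell cycle promoters were read as RNA levels in a list of 10, without data on their binding. Of them 5 were higher and none lower with AOAH, and 3 were lower and 1 higher with PC. Over all genes tested 13.1% were higher with AOAH, and 11.2% were lower and 8.26% higher with PC. Nothing particular to this list is read from its PC count. The 5 became 3 with batch as a block and without vehicle 3, vehicle 4 or AOAH 3. Over all genes, the 1514 higher with AOAH became 1121, 1426, 1073 and 1152 in the same order. The 3 lower with PC became 5 with 1 fit over all 11 libraries. Mybl2, or B-MYB, the partner of MuvB at late cell cycle promoters, stood at 31.3, 28.8, 32.2 and 29.6 TPM in the vehicle libraries, at 40.9, 40.5, 44.6 and 41.5 TPM with AOAH and at 19.3, 17.4 and 18.0 TPM with PC. The groups did not overlap, with changes of 0.45 ± 0.05 (SE, limma adjusted p = 0.000308) and -0.73 ± 0.06 (SE, limma adjusted p = 0.00106). Tfdp1, the partner of E2F factors, rose by 0.23 and fell by 0.45, and Lin37, a MuvB subunit, was higher with PC by 0.24 (limma adjusted p = 0.044). That call was lost with the block, without any 1 of vehicle 1 to 3, without PC 1 or PC 2, without the filter, with 1 fit over all 11 libraries and with vehicle 4 included.

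Genes that restrain the cell cycle moved the other way in part. Of 15 listed, 12 were tested, of which 6 were lower and 1 higher with AOAH, and 5 were higher and 4 lower with PC. The 4 became 2 without vehicle 1, and the 1 higher with AOAH became 2 under quantile normalization. Over all genes tested, 12.1% were lower and 13.1% higher with AOAH, and 8.26% were higher and 11.2% lower with PC. Cdkn1b, the inhibitor p27, stood at 31.5, 35.0, 29.8 and 32.8 TPM in the vehicle libraries, at 17.3, 15.7, 18.3 and 14.4 TPM with AOAH and at 41.0, 43.3 and 44.7 TPM with PC, falling below every vehicle library with AOAH and rising above with PC. Its changes were -0.94 ± 0.08 (SE, limma adjusted p = 7.83e-05) and 0.41 ± 0.07 (SE, limma adjusted p = 0.00759). Cdkn1a, the inhibitor p21, stood at 20.1, 18.6, 18.7 and 17.8 TPM in the vehicle libraries, at 21.4, 19.3, 20.2 and 22.6 TPM with AOAH and at 30.7, 37.6 and 35.9 TPM with PC, so that only the PC libraries stood apart. It changed by 0.83 ± 0.08 (SE, limma adjusted p = 0.00146) with PC and by 0.14 ± 0.06 (SE, limma adjusted p = 0.109) with AOAH. Btg1, an antiproliferative factor, fell by 0.43 and rose by 0.18, with Btg2, Ccng2, Rbl2 and Cdkn2d also lower with AOAH, and Btg2 and Ccng2 also higher with PC. Pkmyt1 and Wee1, which inhibit the mitotic kinase and are themselves cell cycle genes, were lower with PC (-0.44 and -0.43) together with Cdkn2c and Rbl1, and Pkmyt1 rose with AOAH (0.19).

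DNA replication genes, which act earlier in the cell cycle, gave a comparison with the step before mitosis. Of 36, 33 were higher with AOAH, against 13.1% of all genes tested, and 36 were lower with PC, against 11.2%. None of the 36 replication genes was called in the other direction. Their median change was 0.26 with AOAH, against 0.34 for the 56 mitosis genes, and -0.49 with PC, against -0.99, and this difference between lists was not tested. Tyms and Tk1, enzymes of thymidine supply, rose by 0.49 and 0.33 and fell by 0.84 and 0.92, and Mcm3, of the replicative helicase, and Dut, a dUTPase, rose by 0.25 and 0.26 and fell by 0.31 and 0.55.

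**Figure D5:**
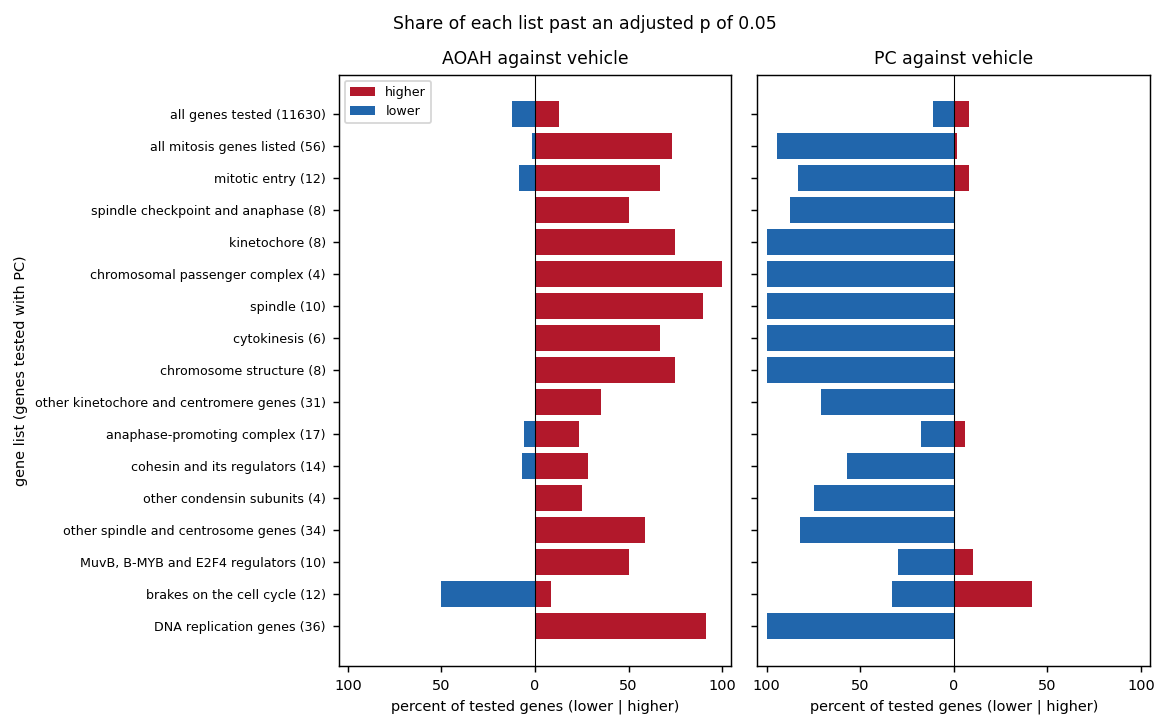
Percent of the tested genes of each list called higher (right) or lower (left) at an adjusted p under 0.05, for AOAH and for PC against vehicle, with the number tested with PC in brackets. All 7 role groups of the 56 genes point mainly right with AOAH and left with PC, and mitotic entry also has 1 gene on the other side in each panel. The shares over all genes tested stay under 14% in each direction, and the list of cell cycle brakes has 6 genes lower and 1 higher with AOAH.

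The libraries of 1 group were not alike in these genes. Among vehicle libraries the highest level of a gene was in vehicle 3 for 28 genes and in vehicle 1 for 25, and the lowest in vehicle 4 for 28 and in vehicle 2 for 25. Within AOAH, the highest was in AOAH 3 for 30 genes and the lowest in AOAH 2 for 22 and AOAH 4 for 21. Within PC, PC 1 was highest for 35 genes and PC 2 lowest for 32. Comparing libraries of the same batch, the median difference of the 56 genes between AOAH and vehicle was 0.23, 0.43, 0.27 and 0.42 in batches 1 to 4, with 51, 54, 53 and 52 genes higher. Between PC and vehicle it was -0.97, -0.88 and -1.12 in batches 1 to 3, with 55, 53 and 54 genes lower, and between AOAH and PC it was 1.25, 1.30 and 1.44, with 54 genes higher in each batch. The direction was the same within every batch. Any other pairing would give that median direction too, because AOAH lay wholly above vehicle in 43 genes and PC wholly below in 53. Batches 1 and 3, whose vehicle libraries were the higher ones, gave the smaller AOAH differences, as subtracting a higher level must.

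The authors' deposited tables of the AOAH and the PC comparison, made with a count model, list all 56 genes. In the authors' deposited table for AOAH, 44 of the 56 were higher and 1 lower at an adjusted p under 0.05, against 8.45% and 8.68% of its 12492 genes with an adjusted p. The authors' deposited table calls Aurka, Cenpf, Hmmr and Prc1, which were not called here, and does not call Cdca2, which was called here. In the authors' deposited table for PC, 53 were lower and none higher, against 7.65% and 5.74% of its 11109 genes, and Cdc25b, called higher here, has an adjusted p of 0.122 there. The median log2 change over the 56 genes in the authors' deposited tables is 0.35 for AOAH and -1.05 for PC, and the sign was the same as here for all 56 in each.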

How the data were processed

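Gene levels came from a table the authors deposited as log2(TPM + 1), 1 column per library. The submitters' processing notes name RSEM, DESeq2 and the build mm39, with no versions; the sources used here do not give the aligner, the annotation or any molecular identifiers. The values were turned back into TPM, which keep no depth. The authors' deposited comparison tables, per the file headers, give a base mean (a signal of normalized counts), a log2 fold change, its standard error, a Wald statistic (a score) and p-values, raw and adjusted.

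The 3 comparisons used limma 3.58.1 in R 4.3.3 (trend, robust, two-sided, Benjamini-Hochberg adjustment over all genes averaging 1 TPM or more in the libraries compared, called under 0.05), with a pseudocount of 1 and groups from the treatment labels. The 56 genes and the lists of other genes were chosen with earlier results of these data known. Values in every library are given for Mki67 and, in each of 7 role groups, for the pair of highest mean TPM and the gene of largest change in each comparison with vehicle, besides those that moved against the rest, and of each other list for the genes of lowest p and those that moved against the rest.

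Batch numbers pair libraries across groups because the labels name them batches; deviations from group means had a mean correlation of -0.00332 in 10 same-batch pairs and 0.00114 in 30 others. The fit was also run on simulated data with independent noise for each gene. Real genes moved together between libraries, and no result here rests on that run. Alternatives changed the pseudocount (0.1 or 5), the filter (none or 5 TPM), scaling (TMM, quantile), weights, a batch block, 1 fit over all libraries, vehicle 4 and each library left out. The same alternatives for the lists of other genes and the genes named from them were added after the data were seen. Promoters are RefSeq's, of GRCm38.p6, used for their letters only; Ccna2, Cdc25c, Foxm1, Spc24, Aurkb, Incenp, Tpx2, Kif20a, Smc4 and Cdca2 had no match by symbol. T cell receptor repertoire measures were not used here.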

Additional observations from a re-analysis of the deposited data

Results flagged for a closer look

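Within groups of 4 libraries, 6 of the 114 groups examined (56 genes and the summed level, in vehicle and in AOAH) had a library set apart from the rest, with a gap to its nearest neighbour above Dixon's 95% critical share of the group's range; chance gives about 1 in 20. All 6 were in AOAH. Aurka, the centrosomal aurora kinase, stood at 30.7 TPM in AOAH 1, and the nearest other AOAH library was at 26.0 TPM. The kinetochore gene Spc24 stood at 74.0 TPM in AOAH 3, with the next at 64.2 TPM. The kinetochore motor Cenpe was lowest in AOAH 2, at 8.03 TPM against 8.65 TPM for the next. Tpx2, the activator of aurora A, was lowest in AOAH 2, at 29.2 TPM against 32.4 TPM. Ckap2 was lowest in AOAH 2, at 14.6 TPM against 15.6 TPM, and its relative Ckap2l was lowest in AOAH 4, at 13.4 TPM against 14.2 TPM.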

How the results depend on the processing

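Across the alternatives, the count of mitosis genes called higher with AOAH was 35 to 46 (33 to 45 with 1 library left out) and its median change 0.29 to 0.39. The count called lower with PC was 48 to 53, also with 1 library left out, and its median, -0.99, ran from -1.07 to -0.92 with 1 library left out and was -0.76 with a pseudocount of 5. The median difference between AOAH and PC, 1.31, was 1.37 with a pseudocount of 0.1 and 1.00 with a pseudocount of 5, and 1.27 to 1.32 with 1 library left out. Over all genes, 2269 were called with PC, 1339 without the filter on low genes, and 1274 (without vehicle 1) to 2083 with 1 library left out, among them 1391 without vehicle 3, 1405 without PC 2 and 1387 without PC 3. With AOAH 2913 genes were called, 2198 to 2643 with 1 library left out, and 5307 differed between AOAH and PC, 4446 to 5047 with 1 library left out. With the replicate block (batch as a term), 45 mitosis genes were higher and 1 lower with AOAH, 52 were lower and 0 higher with PC, and 54 were higher and 1 lower in AOAH against PC; 2300, 1572 and 4246 genes were called. The block added the AOAH calls of Aurka, Ccnb2, Hmmr and Prc1, ended the PC calls of Cdc25b and Kntc1, and changed no other call among the 56. The 1 gene higher with PC, Cdc25b, was not called (0 higher) without the filter or with the block, and the count was 0 to 1 with 1 library left out. Signs turned only in genes not called with AOAH: Kif23 ran from -0.032 (without vehicle 2) to 0.20 (without AOAH 4) with 1 library left out and was also below 0 without AOAH 1, and Smc4 ran from -0.028 (without vehicle 4) to 0.033 (without vehicle 1), was 0.00479 without AOAH 4 and was 0.00182 under TMM scaling; the cause was not tested. Of the single-gene changes among the 56 under these alternatives, with AOAH 882 kept their side of the threshold, 35 lost and 28 gained a call and 5 turned in sign; with PC 856 kept it, 34 lost and 1 gained a call, and in AOAH against PC all 894 kept it. Depth is unknown from TPM, so the precision of low genes in the fits here rests on the spread between libraries alone. A low TPM need not mean few counts. The authors' deposited tables give Cenpf a base mean of 702 in the AOAH comparison and 438 in the PC comparison. Hmmr has 680 and 407 there, and Cdc25c 114 and 80.0.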

Other observations

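Some proteins that work in pairs had transcripts that did not keep a fixed proportion. These ratios of TPM were chosen after the values were seen and are given without a test. For the condensin cores, Smc4 to Smc2 was 2.26 to 2.65 in vehicle, 1.73 to 2.03 with AOAH and 3.17 to 3.38 with PC, with no overlap between the 3 groups. For centralspindlin, Racgap1 to Kif23 was 2.68 to 4.02 in vehicle, 3.15 to 5.20 with AOAH and 4.10 to 6.29 with PC, so PC lay above vehicle while AOAH overlapped both. For the Cks proteins, Cks2 to Cks1b was 1.12 to 1.23 in vehicle, 1.18 to 1.33 with AOAH and 1.38 to 1.51 with PC. The CDC25 phosphatases, Cdc25b to Cdc25c, gave 3.00 to 6.56 in vehicle, 1.49 to 3.22 with AOAH and 7.31 to 8.77 with PC. For the B cyclins, Ccnb1 to Ccnb2 was 4.51 to 5.27, 4.02 to 5.71 and 4.41 to 6.85 in the same order, overlapping throughout.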
